A study of Mus musculus with 6 samples.

Results

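The axon guidance ligands and receptors examined here are 69 genes, of 19938 named genes measured in the series. They were chosen by name: netrins and their receptors Dcc, neogenin and Unc5, semaphorins with plexins and neuropilins, slits with Robo receptors, and ephrins with Eph receptors. A gene with more than 1 row in the table was read from the row with the highest mean, and 35 of the 69 genes encode ligands and 34 receptors. RNA from the mouse embryonic stem cell line E14 was hybridised to Affymetrix arrays that probe whole transcripts, with 3 Tdg knockdown arrays and 3 control arrays. Tdg codes for thymine DNA glycosylase, which cuts mispaired thymine and some oxidised forms of 5-methylcytosine out of DNA for base excision repair. Both groups were grown on 0.1% gelatin with 15% serum and LIF at 1000 units/ml. The protocols describe lentiviral infection at a multiplicity of infection (MOI) of 10 and puromycin at 2 ug/ml from 48 h. What the control cells received is given only as "control", and the vector's insert is not given in the sources used here.

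Guidance molecules steer growing axons and migrating cells by attraction or repulsion. A ligand on one cell, or secreted by it, binds a receptor on another, and the receptor changes the actin cytoskeleton through small GTPases and kinases. Most of these families also act outside the nervous system, in vessels, epithelia and early embryos. In bulk RNA, fewer cells that make a transcript and less of it per cell cannot be told apart.

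The arrays were alike in scale, with median log2 signals of 7.41 to 7.48. Tdg, read from 4 rows shared with its pseudogene Tdg-ps2, had log2 signals of 8.24, 8.15 and 7.93 after knockdown, against 11.12, 11.20 and 11.10 in control arrays. That is 12.2% of the control signal (log2 fold change -3.03, SE 0.09, limma adjusted p 8.79e-05; exact permutation p 0.1, the smallest that 3 against 3 allows). The extraction protocol names Kdm2b in place of Tdg, and Kdm2b itself differed by 0.10 (adjusted p 0.694). The labelled cell type showed its markers. The 12 listed stem cell genes include the defining markers Pou5f1, Nanog, Sox2 and Zfp42, with log2 fold changes of 0.04, 0.02, -0.10 and 0.10. The mean log2 signal of the 12 genes was 12.15 to 12.23 in knockdown arrays and 12.15 to 12.19 in controls. Of these genes 0 were called and 0 had an unadjusted p under 0.05, beside 0.792% and 12.5% of all named genes. The smallest p were those of Lin28a and Klf4, both with a log2 fold change of 0.09. The labels do not state whether replicate arrays stem from separate cultures. The p-values therefore cover no more than the spread among these arrays, and that spread may be technical.

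Of the 69 guidance genes, 1 rose and 5 fell in Tdg knockdown cells. The gene that rose was Ntn1, which encodes the secreted cue netrin-1. Those that fell were the semaphorin genes Sema3c, Sema6a and Sema3e, the ephrin gene Efna5 and the Eph receptor gene Epha1. The changes were moderate, between 1.75-fold higher for Ntn1 and 1.85-fold lower for Sema3c. Ligands made up 5 of the 6, with 1 of 34 receptor genes past the threshold. Below that threshold the 2 sides were much alike. An unadjusted limma p under 0.05 was seen for 31.4% of ligand and 26.5% of receptor genes. The groups did not overlap for 37.1% and 35.3%.

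Called genes were those with a Benjamini-Hochberg adjusted p under 0.05 in limma over all 19938 named genes. By that rule 0.792% of all named genes were called, 0.241% higher and 0.552% lower, against 6 of 69 guidance genes (8.7%). Without adjustment, 20 guidance genes had a p under 0.05 (29.0%), 5 higher and 15 lower, beside 12.5% of all named genes, 5.03% higher and 7.48% lower. The knockdown and control arrays did not overlap for 25 guidance genes (36.2%), 6 higher and 19 lower, beside 19% of all named genes, 7.98% higher and 11% lower. The median log2 fold change of the guidance genes was -0.02, and that of all named genes was 0.02. The 63 guidance genes that were not called lay between -0.46 and 0.33 on the log2 scale.

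Arrays of both groups carry replicate numbers 1 to 3 in their titles. When the number entered the model as a block, 3.08% of all named genes were called (1.07% higher and 2.01% lower) and 8 guidance genes were, 1 higher and 7 lower. The further 2 were the netrin receptor gene Unc5b and the Eph receptor gene Epha4, both lower. Most calls were lost when single arrays were left out. Leaving out knockdown replicate 3 kept all 6, and leaving out control replicate 3 kept only Sema6a. Leaving out any of the other 4 arrays kept none (limma, with 14 to 18 guidance genes at an unadjusted p under 0.05). Over all 19938 named genes, calls fell from 158 to 0 without knockdown replicate 1, control replicate 1 or control replicate 2. They fell to 4 without knockdown replicate 2, and 1510 to 2751 named genes had an unadjusted p under 0.05 in these 4 refits. Calls were 291 without knockdown replicate 3 and 15 without control replicate 3. All 6 genes kept their direction in each refit that left out 1 array. That outcome was fixed in advance, since their groups do not overlap and leaving out an array cannot reverse them.

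**Figure D1:**
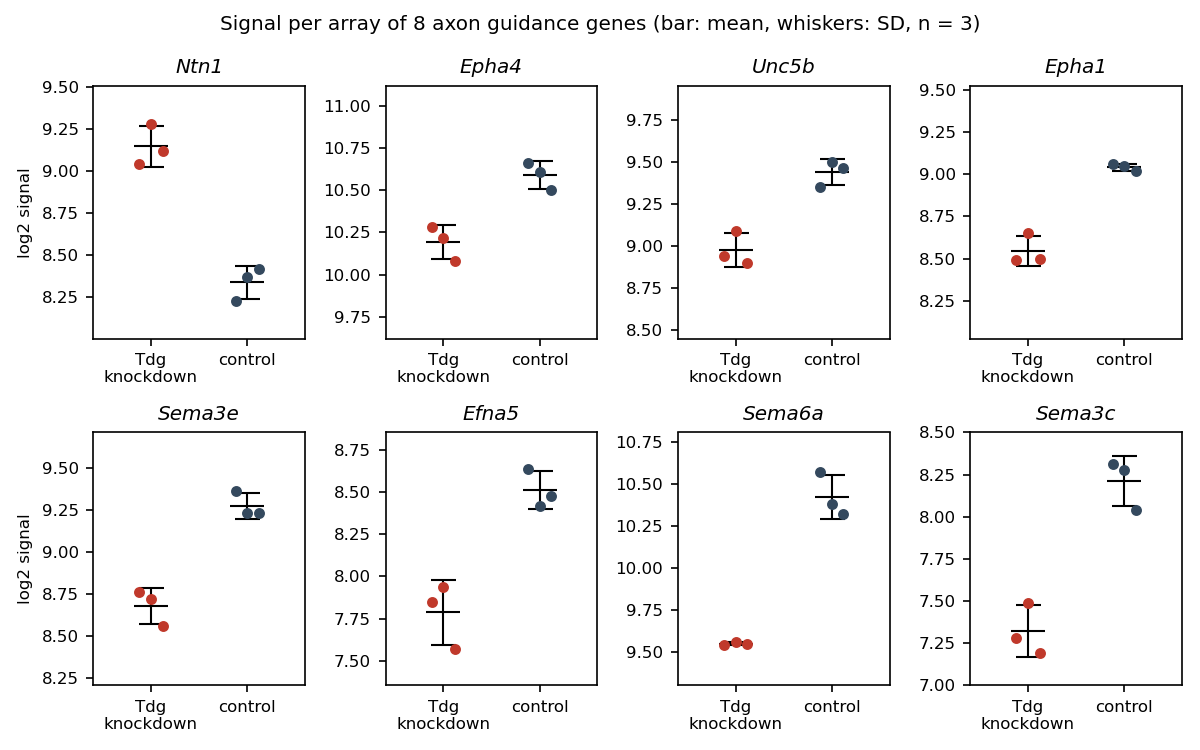
Log2 signal (vertical axis, a window of equal height in each panel) of the 8 genes called with or without the replicate block, in Tdg knockdown arrays (left, red) and control arrays (right, dark). Points are arrays, bars are means and whiskers SD (n = 3 each). Ntn1 is the only 1 of the 8 with its knockdown arrays above the controls, and no panel has overlapping groups.

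Promoter sequence is shown for 4 of the called genes, because the cytosines that TET and TDG act on lie mostly in CG dinucleotides. Each line gives the 250 bases before a RefSeq transcript start in GRCm38.p6, 5′ to 3′ on the strand of the gene, with every CG dinucleotide in capitals.
Sema3c, chr5:17574566-17574815, plus strand: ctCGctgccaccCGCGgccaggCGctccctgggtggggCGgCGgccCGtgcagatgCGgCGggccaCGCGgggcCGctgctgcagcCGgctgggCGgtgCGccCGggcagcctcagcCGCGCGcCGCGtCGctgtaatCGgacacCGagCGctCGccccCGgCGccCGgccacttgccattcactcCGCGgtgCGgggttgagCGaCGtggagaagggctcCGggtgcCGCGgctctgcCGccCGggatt
Sema3e, chr5:14025026-14025275, plus strand: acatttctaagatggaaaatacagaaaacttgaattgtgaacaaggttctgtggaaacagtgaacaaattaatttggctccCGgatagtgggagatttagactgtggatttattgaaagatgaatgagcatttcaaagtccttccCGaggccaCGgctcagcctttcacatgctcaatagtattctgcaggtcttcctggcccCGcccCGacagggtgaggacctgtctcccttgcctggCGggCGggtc
Efna5, chr17:62881318-62881567, minus strand: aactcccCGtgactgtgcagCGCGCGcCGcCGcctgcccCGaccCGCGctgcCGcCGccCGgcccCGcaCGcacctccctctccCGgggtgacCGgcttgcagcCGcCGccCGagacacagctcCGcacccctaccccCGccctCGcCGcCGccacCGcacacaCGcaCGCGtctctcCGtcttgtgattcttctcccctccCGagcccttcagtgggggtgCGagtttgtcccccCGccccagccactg
Epha1, chr6:42373269-42373518, minus strand: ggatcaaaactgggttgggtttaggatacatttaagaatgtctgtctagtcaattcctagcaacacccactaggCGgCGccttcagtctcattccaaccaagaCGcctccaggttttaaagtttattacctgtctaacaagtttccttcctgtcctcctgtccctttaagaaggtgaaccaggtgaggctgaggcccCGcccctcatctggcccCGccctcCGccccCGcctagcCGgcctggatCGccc
They held 39 CG dinucleotides for Sema3c, 7 for Sema3e, 32 for Efna5 and 9 for Epha1. The table lists 75 such windows for 59 of the 69 guidance genes, with a median of 15 CG dinucleotides and a range of 0 to 46. Over the 19116 windows of named genes the median was 11. Sema3c and Efna5 thus lay above the upper quartile of named genes, 20, and Sema3e and Epha1 lay within the quartiles of 4 to 20. Uncalled genes covered a wider range: Epha8 had 46 (log2 fold change 0.00) and Neo1 45 (-0.04), while Robo4 had 2 (0.33). The motif GGGCGG, searched on both strands as GGGCGG or CCGCCC, was present in 54 of the 75 windows (72%) and in 45.6% of windows of all named genes. Every copy of it contains a CG dinucleotide. TATAAA, searched as TATAAA or TTTATA, was in 2 of the 75 (2.67%) and in 10.6% of all windows, and in none of the 4 printed here. CpG methylation and oxidation were not analysed here.

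Netrins are laminin-like secreted proteins. Dcc and neogenin are receptors for attraction, and Unc5 receptors turn the response to repulsion. Ntn1 had log2 signals of 9.04, 9.28 and 9.12 in knockdown arrays, against 8.23, 8.37 and 8.42 in controls. All knockdown arrays lay above all controls, with a gap of 0.62 between the nearest arrays. The mean was 9.15 ± 0.12 in knockdown and 8.34 ± 0.10 in control cells (SD, n = 3 each), a log2 fold change of 0.81 (SE 0.09, limma adjusted p 0.018). The remaining netrin genes were Ntn4 (0.12, adjusted p 0.827), Ntn3 (0.07, 0.865) and Ntn5 (0.03, 0.909), with overlapping groups. For all 3 the highest array was knockdown replicate 3.

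Unc5b, a netrin receptor also known from blood vessels, was lower in every knockdown array, with 8.94, 9.09 and 8.90, against 9.35, 9.50 and 9.46 in controls. The groups stood apart by 0.26, but the change of -0.46 (SE 0.08) missed the threshold at an adjusted p of 0.0563 and passed at 0.0261 with the replicate block. Unc5a, of the same family, also had groups that did not overlap, with 8.01, 7.95 and 7.89 in knockdown and 8.10, 8.11 and 8.16 in control arrays. Its difference was small (-0.17, adjusted p 0.312). Unc5d and Unc5c showed 0.16 and -0.02, with wide intervals (-0.12 to 0.45 and -0.39 to 0.35). The main attractive receptors did not pass: Neo1 differed by -0.04 (95% interval -0.18 to 0.10) and Dcc by 0.10 (-0.23 to 0.42). The Dcc row was dim, at 5.86 to 6.38 over the 6 arrays, so its interval speaks of measured signal only. Of the 6 receptor genes, 0 were called without the block and 1 with it (beside 0.792% and 3.08% of all named genes). An unadjusted p under 0.05 was seen for 2, Unc5b and Unc5a (33.3%, beside 12.5%).

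Semaphorins share a sema domain, and most signal through plexins. The class 3 proteins are secreted and most of them need a neuropilin as co-receptor. Sema3c, known for its part in the cardiac outflow tract, had 7.28, 7.49 and 7.19 in knockdown arrays, against 8.31, 8.28 and 8.04 in controls. Every knockdown array lay at least 0.55 below every control. The means were 7.32 ± 0.15 and 8.21 ± 0.15 (SD, n = 3 each, knockdown and control), which leaves 54.0% of the control signal (log2 fold change -0.89, SE 0.11, adjusted p 0.0263).

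Sema3e, which can bind plexin-D1 without a neuropilin, had 8.76, 8.72 and 8.56 in knockdown and 9.36, 9.23 and 9.23 in control arrays. These groups did not overlap either, and the knockdown signal was 66.3% of control (-0.59, SE 0.08, adjusted p 0.0318). The other 5 class 3 genes had overlapping groups and log2 fold changes from -0.03 to 0.19. Of these, Sema3a, a repellent of sensory axons, showed 0.19 (95% interval -0.13 to 0.51) and Sema3f -0.03 (-0.29 to 0.23). For 3 of the 5, Sema3a, Sema3g and Sema3b, knockdown replicate 3 was the highest of the 6 arrays.

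Sema6a, a transmembrane semaphorin that binds plexin-A2 and plexin-A4, had the smallest p of all 69 genes in the model without the block, though not with it. Its knockdown arrays were nearly equal, at 9.54, 9.56 and 9.55, against 10.57, 10.38 and 10.32 in controls. The gap between the groups was 0.76, and the knockdown signal was 54.6% of control (-0.87, SE 0.08, adjusted p 0.0115). Leaving out each array in turn gave fold changes of -0.93 to -0.80 with adjusted p of 0.0104 to 0.102.

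The other 12 semaphorin genes outside class 3 were not called, and 3 of them had an unadjusted p under 0.05 (beside 12.5% of all named genes). Sema4c, a ligand of plexin-B2, had 7.73, 7.78 and 7.76 in knockdown and 7.88, 8.08 and 8.01 in control arrays (-0.23, adjusted p 0.227). Sema4b went the other way, with 10.57, 10.72 and 10.63 in knockdown and 10.40, 10.45 and 10.46 in control arrays (0.20, adjusted p 0.253). In both, the groups did not overlap, and neither difference passed the threshold. Sema4f, Sema4g and Sema5a also had every knockdown array below every control, by fold changes of -0.14, -0.14 and -0.13. Sema4d, the ligand of plexin-B1, was at 9.90, 10.00 and 9.86 in knockdown and 9.96, 9.93 and 9.88 in control arrays, with an interval of the difference of -0.16 to 0.15. Sema7a, which is anchored in the membrane by a lipid, showed -0.02 (-0.24 to 0.20).

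Of the semaphorin receptors, 0 of 9 plexin and 0 of 2 neuropilin genes were called with or without the block. An unadjusted p under 0.05 was seen for 1 of each. With so few genes these counts say little, beside 0.792% of all named genes called, 3.08% with the block and 12.5% unadjusted. Nrp1, co-receptor of class 3 semaphorins and of VEGF, had 6.51, 6.28 and 6.64 in knockdown and 6.15, 6.13 and 6.35 in control arrays. The groups overlapped, and the difference was 0.27 (adjusted p 0.38). Nrp2, its paralogue, showed 0.15 (adjusted p 0.468) with overlapping groups. Plxnb2 had 10.33, 10.45 and 10.30 in knockdown and 10.58, 10.54 and 10.51 in control arrays, without overlap (-0.18, adjusted p 0.316). Of the plexin genes whose proteins bind called ligands, Plxnd1, which binds Sema3e, differed by -0.07 (-0.22 to 0.08), and Plxna2 and Plxna4, which bind Sema6a, by -0.01 (-0.18 to 0.15) and 0.17 (-0.04 to 0.38). The plexin genes as a whole ran from -0.18 to 0.17.

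Slits are large secreted proteins that repel axons through Robo receptors, as at the ventral midline. Of the 3 slit and 4 Robo genes 0 were called with or without the block (beside 3.08% and 0.792% of all named genes). An unadjusted p under 0.05 was seen for 1 of each, beside 12.5% of all named genes. Slit3 had 7.94, 7.98 and 7.91 in knockdown arrays, against 8.10, 8.20 and 8.24 in controls, without overlap (-0.24, SE 0.07, adjusted p 0.176). Slit2 and Slit1 showed -0.19 and -0.05 with overlapping groups. Robo4, known mainly from endothelium, had 7.33, 7.34 and 7.41 in knockdown and 6.93, 6.95 and 7.20 in control arrays. Its groups did not overlap, and the difference of 0.33 (SE 0.09) had an adjusted p of 0.16, or 0.0526 with the block. Robo1 also lay above the controls in every knockdown array, by 0.13 (adjusted p 0.46), while Robo3 (0.13) and Robo2 (0.07) overlapped.

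**Figure D2:**
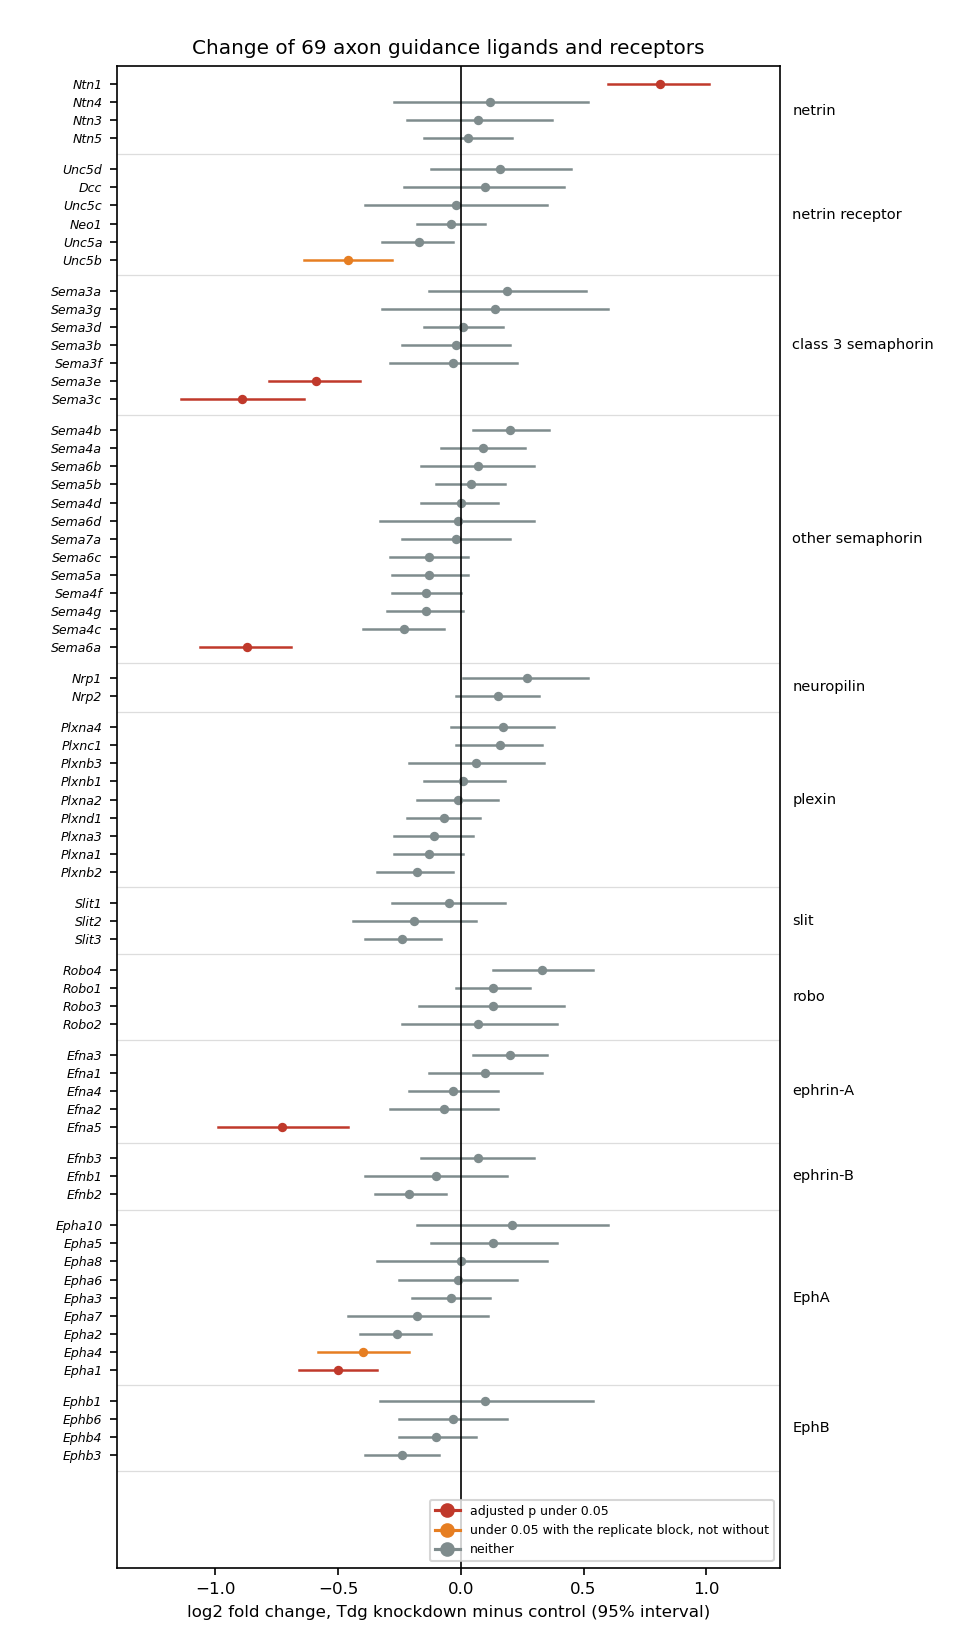
Log2 fold change (horizontal axis, Tdg knockdown minus control) of all 69 guidance genes by family, with 95% intervals from limma. Red genes had an adjusted p under 0.05, orange genes had one with the replicate block but not without it, and grey genes had neither. Within class 3 semaphorins and ephrin-A genes the called members lie below all uncalled members, whose values run from -0.07 (Efna2) to 0.20 (Efna3).

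Ephrins are membrane-bound ligands of Eph receptor tyrosine kinases, and signals pass into both cells at a contact. Ephrin-A proteins are held by a lipid anchor, and ephrin-B proteins cross the membrane. Efna5, a repellent in the retinal map of the midbrain, had 7.85, 7.94 and 7.57 in knockdown arrays, against 8.64, 8.42 and 8.48 in controls. The groups were 0.48 apart, and the knockdown signal was 60.4% of control (-0.73, SE 0.11, adjusted p 0.0443).

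The other 4 ephrin-A genes were not called. Efna3 had 10.15, 10.18 and 10.04 in knockdown and 9.92, 9.95 and 9.90 in control arrays, higher without overlap but not called (0.20, adjusted p 0.254). Efna1, Efna2 and Efna4 overlapped, at 0.10, -0.07 and -0.03. Among the ephrin-B genes, Efnb2, a marker of arterial endothelium, had 8.61, 8.66 and 8.61 in knockdown and 8.87, 8.86 and 8.77 in control arrays (-0.21, adjusted p 0.213). Its groups did not overlap, whereas Efnb1 (-0.10) and Efnb3 (0.07) did.

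Epha1, an Eph receptor of epithelia, was the receptor gene called without the block. It had 8.49, 8.65 and 8.50 in knockdown arrays, against 9.06, 9.05 and 9.02 in controls. The controls spanned only 9.02 to 9.06, all above the knockdown arrays, and the knockdown signal was 70.9% of control (-0.50, SE 0.07, adjusted p 0.0331).

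Epha4, a receptor for both ephrin classes, had 10.28, 10.22 and 10.08 in knockdown and 10.66, 10.61 and 10.50 in control arrays. The groups stood apart by 0.22, and the change of -0.40 (SE 0.08) had an adjusted p of 0.0845, or 0.0276 with the block. Epha2, a receptor of ephrin-A1 in epithelia, had 10.56, 10.67 and 10.58 in knockdown and 10.90, 10.83 and 10.87 in control arrays. It too was lower without overlap, and did not pass in either model (-0.26, adjusted p 0.127, blocked 0.0783).

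The remaining 6 EphA genes had overlapping groups and fold changes from -0.18 for Epha7 to 0.21 for Epha10, a receptor that lacks kinase activity. In 4 of them, Epha10, Epha5, Epha6 and Epha8, the highest array was knockdown replicate 3. Among EphB genes, Ephb3 had 8.88, 8.98 and 8.90 in knockdown and 9.11, 9.14 and 9.23 in control arrays (-0.24, adjusted p 0.173), without overlap. Ephb4, a venous endothelial receptor of ephrin-B2, showed -0.10 (adjusted p 0.642) with groups only 0.01 apart. The kinase-inactive Ephb6 (-0.03) and Ephb1 (0.10) overlapped. Of the 13 Eph genes, 5 had every knockdown array below every control and 0 had the reverse, beside 11% and 7.98% of all named genes.

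**Figure D3:**
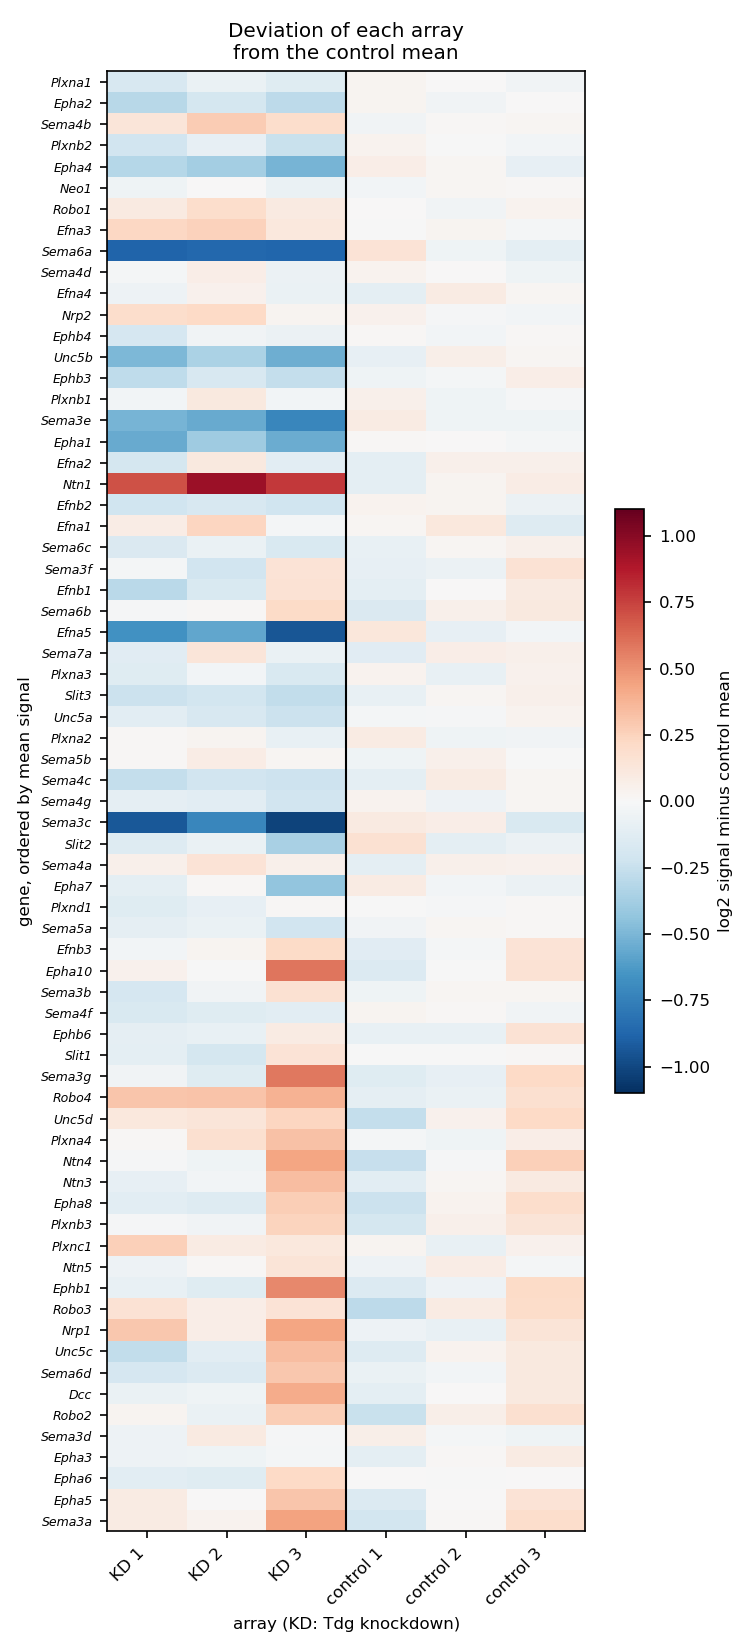
Deviation of each array (columns; KD is Tdg knockdown) from the control mean of the gene, in log2 units by colour, for the 69 guidance genes ordered by mean signal. The called genes are coloured alike in all 3 knockdown arrays, while dim genes at the bottom are higher mainly in knockdown replicate 3.

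Knockdown replicate 3 stood apart from the other arrays, upward in dim rows and downward in brighter ones. The first principal component over all named genes held 58.6% of the variance and put this array at 31 and the rest between -17.5 and 5.2. Of the 20 guidance genes below the array medians on every array, it was the highest array for 16 (80%), and it was the highest for 61.3% of all named genes that dim. Their median deviation from the control mean was 0.28 in knockdown replicate 3 and -0.03 in each of the other knockdown arrays. Of these 20 genes 0 were called by limma with or without the block, and 1 had an unadjusted p under 0.05, Nrp1. Calls were as rare among all 7594 named genes that dim: 16 without the block and 80 with it. An unadjusted p under 0.05 was seen for 484 of them. Of the other 49 guidance genes, knockdown replicate 3 was the lowest array for 17 (34.7%). It was the lowest for 42.5% of all named genes outside the dim set. The 6 called genes are among these 49, beside 142 called of the 12344 named genes outside the dim set. Knockdown replicate 3 was the lowest array for the called genes Sema3c, Sema3e and Efna5. All 3 knockdown arrays lay on the same side of the controls for each of the 6. Without knockdown replicate 3 the fold changes were 0.82 for Ntn1, -0.82 for Sema3c, -0.87 for Sema6a and -0.53 for Sema3e. Those of Efna5 and Epha1 were -0.62 and -0.47. All 6 were called, while calls over all 19938 named genes rose from 158 to 291.

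Genes that work with these ligands and receptors were read from 6 lists. Of 101 measured partners, effectors and other cues, 0 rose and 2 fell (1.98%, beside 0.792% of all named genes), and with the block 3 rose and 6 fell (8.91%, beside 3.08%). At an unadjusted p under 0.05 there were 5 higher and 15 lower (19.8%, beside 12.5%), and the groups did not overlap for 33 genes (32.7%, beside 19%). The first of those that fell was Chn1, a Rac GTPase-activating protein that acts downstream of EphA4, at -0.63 (adjusted p 0.0318). The second was the morphogen gene Bmp7 at -0.52 (0.036). Among 12 netrin partners 0 passed in either model or at an unadjusted p under 0.05, and the smallest p were those of Hjv, a BMP co-receptor of the repulsive guidance molecule family (0.15), and the cell surface protein Mcam (-0.09). Among 22 semaphorin partners only Crmp1, a cytosolic mediator of Sema3a signals, passed with the block (0.31, adjusted p 0.0845, blocked 0.0479). Among 13 Slit and Robo partners the heparan sulphate carrier Gpc1 did (-0.29, 0.232, blocked 0.0482), and among 18 shared cytoskeletal genes the actin-binding Ablim1 did (-0.42, 0.0652, blocked 0.0493). Of 18 other cues and adhesion genes, Bmp7, Vegfa (-0.36) and Nfasc (-0.31) were lower and Ncam1 (0.38) and Cdh2 (0.43) higher with the block, all but Bmp7 with an adjusted p above 0.05 without it. The median over the 101 genes was -0.04.

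Markers of other cell types were read beside these genes, since many guidance genes are used in neural, vascular or endodermal cells. Of 11 neural genes Pax6 rose (0.93), and with the block Tubb3, Map2 and Elavl3 were also higher and Nes lower. These calls were 9.09% of the list, or 45.5% with the block, beside 0.792% and 3.08% of all named genes. An unadjusted p under 0.05 was seen for 7 of the 11 (63.6%, beside 12.5% of all named genes), 4 higher and 3 lower, the further 2 being Neurod1 (-0.48) and Gap43 (-0.20). The groups did not overlap for 8 of the 11 (72.7%, beside 19%). Their summed linear signal was 10724 to 11510 in knockdown arrays and 10846 to 10978 in controls. Of 10 primitive endoderm genes 0 passed without the block, and Hnf4a and Lamb1 were lower with it (20%, beside 3.08%). An unadjusted p under 0.05 was seen for 3 of the 10 (30%, beside 12.5%). The summed signal of the 10 genes was 2827 to 2941 in knockdown arrays, against 3300 to 3405 in controls. The 3 genes with an unadjusted p under 0.05 were Lamb1 (-0.34), Hnf4a (-0.46) and Dab2 (-0.30). They summed to 1683 to 1819 in knockdown and 2237 to 2259 in control arrays. These 3 were picked by their difference on the same arrays, so their sums were bound to separate. For the same reason the rest were bound to lie closer. The sums of the other 7 genes overlapped, at 1061 to 1257 and 1041 to 1150. Of these, Sox17, Sox7, Foxa2 and Gata6 had values above 0 (0.15, 0.15, 0.15 and 0.11). Gata4, Col4a1 and Pdgfra had -0.05, -0.06 and 0.00. None of the 7 was called, and knockdown replicate 3 was the highest array for all of them but Col4a1. A sum of signals over different rows weighs bright rows most and is no level of a cell type. Summed signals of 10 endothelial genes (5090 to 5279 in knockdown, 5102 to 5312 in control arrays) and of 9 fibroblast genes (1605 to 1968 and 1625 to 1891) overlapped between the groups. With the block 1 endothelial gene was higher, Esam (0.39), and 0 fibroblast genes passed (10% and 0%, beside 3.08%). An unadjusted p under 0.05 was seen for 2 of the 10 endothelial genes (20%, beside 12.5%). These were Esam and Pecam1, which was lower without overlap (-0.23). The smallest p among fibroblast genes were those of Pdgfrb (-0.26, the 1 gene with an unadjusted p under 0.05) and Lum (0.12). The part of these cell types in the guidance gene results was not tested.

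**Figure D4:**
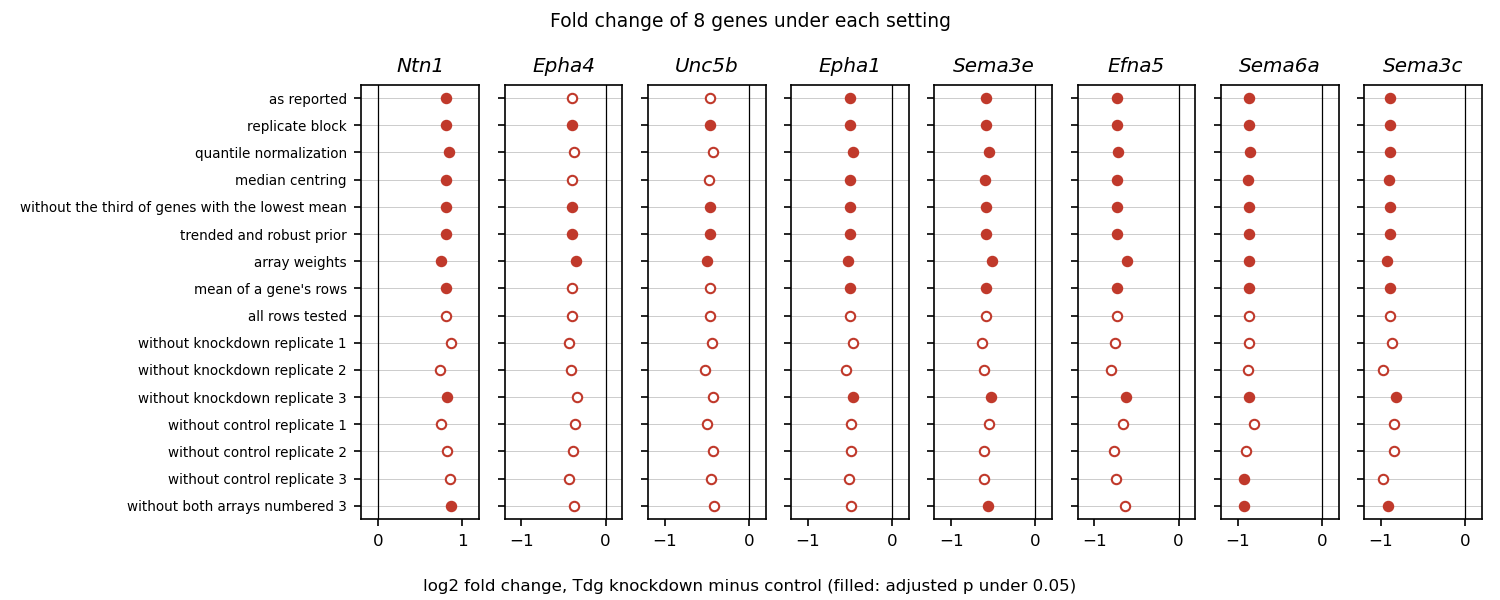
Log2 fold change (horizontal axes, Tdg knockdown minus control) of the 8 genes called with or without the block, under each processing alternative (rows). Filled points had an adjusted p under 0.05. The calls of the 6 genes are lost when most single arrays are left out. The direction of each of the 8 genes is the same in every row. Leaving out an array could not reverse it, as their groups do not overlap.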

How the data were processed

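RNA from 3 Tdg knockdown and 3 control samples of E14 cells was hybridised as biotin-labelled target, per the labels' protocols. The deposited values are log2 signals, 1 per row and array, which the submitters' processing notes credit to Affymetrix Expression Console. No source used here gives its version or normalization, and the log2 scale was read from the range of the values. Background was not assessed, so a level is a measured signal. Genes were ordered or split by signal, and marker signals summed, only to describe the rows.

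Of 35557 rows, 21789 list 1 gene in the platform annotation and 21698 of these matched RefSeq (GRCm38.p6) by gene identifier. The row with the highest mean stood for a gene. Knockdown was compared with control in limma 3.58.1 (R 4.3.3, lmFit and eBayes, two-sided, no block), with Benjamini-Hochberg adjustment over 19938 named genes. The procedure was tested on simulated data. That noise was independent between genes, without shifts shared by an array, and the changes set were larger than those of the called guidance genes. The test therefore does not show how reliable the calls are here. For the block, equal replicate numbers were treated as pairs: deviations from the group means correlated at 0.615, 0.233 and 0.704 for numbers 1, 2 and 3, each over 0.1. Knockdown replicate 2 correlated more with control replicate 1 (0.443). Deviations cancel out within a group, so some arrays are bound to correlate, and these values cannot show that equal numbers are pairs. No label says what a number shares, and few other matchings exist with so few arrays.

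Any guidance gene could be named. Values on every array are given for genes called in either model and for the smallest p in each family. They are also given for Unc5a, Sema4c, Sema4b, Efna3 and Epha2, as examples with an unadjusted limma p under 0.05. Sema4d, whose values are printed too, meets none of these rules. From the 6 pathway and 5 marker lists, genes called in either model are named, or the 2 with the smallest p. Also named are the defining stem cell markers and genes singled out after their values were seen (Neurod1, Gap43, Dab2, Sox17, Sox7, Foxa2, Gata6, Gata4, Col4a1, Pdgfra and Pecam1). The guidance genes and lists were chosen with earlier results of these data known. Sequences are RefSeq's, for 59 of the 69 genes. Alternatives were the replicate block, quantile normalization, median centring, leaving out the third of genes with the lowest mean, another prior, array weights, a gene's mean over rows, all rows tested and leaving out each array. Leaving out both arrays numbered 3 was added after seeing the data.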

Additional observations from a re-analysis of the deposited data

How the results depend on the processing

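Tdg kept its call and direction under every alternative run, from -3.10 to -2.94 when single arrays were left out. With all rows tested its 4 rows were read singly, at -3.13 to -2.94 with adjusted p of 0.000754 to 0.0022. The 14 guidance genes refitted kept their direction. For all of them but Nrp1 the groups do not overlap, so leaving out arrays could not reverse it. The median of all guidance genes moved by less than the spread between knockdown arrays. The replicate block called 614 genes in the whole table and 9 of the pathway lists, against 158 and 2. Leaving out the third of genes with the lowest mean, which also left out 15 guidance genes, gave 444 and 9. The trended and robust prior gave 446 and 9, with 8 guidance genes lower against 5. Array weights gave 1821 and 16, with 6 guidance genes higher against 1 and 12 lower. With all rows tested 17 rows were called, with 0 guidance genes higher, 0 lower and 0 of the pathway lists. The 6 called genes then had a limma adjusted p of 0.0614 to 0.135. In this setting the model was refitted over all rows, so the unadjusted p changed as well, and more rows share the adjustment. Without both arrays numbered 3 there were 3 lower guidance genes. When single arrays were left out the calls ran from 0 to 291 in the whole table, 0 to 1 for higher guidance genes, 0 to 5 for lower ones and 0 to 6 for the pathway lists. Quantile normalization, median centring and the mean of a gene's rows kept the 6 calls. The 3 arrays per group limit the precision, and no refit tells whether a lost call reflects fewer arrays or the array left out.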

Other observations

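Of the 69 guidance genes, 5 had a second row that lists only that gene, and none of the second rows was called with all rows tested. The second rows showed log2 fold changes of 0.11 for Epha10, 0.23 for Ephb1, 0.02 for Sema4d, 0.07 for Sema6b and 0.05 for Unc5d, against 0.21, 0.10, 0.00, 0.07 and 0.16 for the rows used.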
